A study of Mus musculus with 6 samples.

Results

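The 43 genes described here encode the core of cyclic AMP signalling in 8 classes. These are 5 G protein alpha subunits, 8 adenylyl cyclases, 2 catalytic and 4 regulatory subunits of protein kinase A (PKA), 6 CREB factors and coactivators, 15 phosphodiesterases, 2 Epac exchange factors and 1 anchoring protein. They were picked by gene symbol, not by their values, from 22869 genes with a symbol, and a gene with several transcript rows was represented by the row with the highest mean. Of the 43, 34 had a mean of at least 1 FPKM (fragments mapped to a transcript per kilobase of its length, relative to all fragments mapped in that library) and were among 11642 genes tested. The other 9 (Adcy1, Adcy8, Adcy9, Crtc3, Pde2a, Pde3a, Pde4c, Pde4d and Akap12) are given as levels only.

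The study sequenced polyA RNA of 2 cell types of the anterior pituitary, somatotropes, which secrete growth hormone, and lactotropes, which secrete prolactin. All 6 libraries came from female CD1 x C57BL/6 hybrid mice of 6 to 8 weeks, with 3 biological replicates per cell type numbered 1 to 3 and no treatment listed. The cells were sorted by fluorescence into Trizol LS and the RNA was amplified before library preparation. Not given in the sources used here are the marker or transgene behind the sort and whether a replicate held 1 animal or pooled animals. The p-values therefore measure only how these samples vary, which may be technical.

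Hormones that act through the stimulatory G protein, such as growth hormone-releasing hormone on somatotropes, activate adenylyl cyclase, and the cyclic AMP produced releases the catalytic subunits of PKA from their regulatory subunits and activates Epac. PKA phosphorylates CREB, which drives cyclic AMP responsive genes together with its coactivators. Dopamine, which holds back lactotropes, and somatostatin, which holds back somatotropes, act through inhibitory G proteins that lower cyclase activity, and phosphodiesterases end the signal by hydrolysing cyclic AMP.

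The labels were checked first. Gh ranged from 19384 to 84909 FPKM in the somatotrope libraries and from 3954 to 7623 in the lactotrope libraries. Prl stood between 8709 and 24481 in somatotropes and was lowest at 25171 in lactotropes, so neither hormone overlapped, although both were present in every library. The 2 hormones together took between 14.4% and 55.7% of a library's summed FPKM, which can lower the other values in it. The number of fragments was not given, and from 11318 genes (lactotrope 3) to 18592 genes (somatotrope 1) had a value above 0. Summed leukocyte markers (10 genes) were 280, 5762 and 2952 FPKM in the somatotrope libraries (replicates 1 to 3) and 821, 12621 and 4474 in the lactotrope libraries. Summed corticotrope and melanotrope markers were 95.9, 1214 and 5778 FPKM in somatotropes and 877, 554 and 426 in lactotropes. Erythroid markers summed to 29.5, 86.8 and 4259 FPKM in somatotropes and 5.33, 325 and 3529 in lactotropes, high in both replicate 3 libraries. Summed endothelial markers stayed between 0 and 3.81.

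No member passed the test between the cell types. With limma and Benjamini-Hochberg adjustment over all genes, 0 of 34 members and 0% of all tested genes had an adjusted p under 0.05. At an unadjusted p under 0.05 the counts were 0 of 34 members and 0.962% of all genes. With the replicate number as a block, again 0 members and 0% of all genes passed after adjustment. The titles state no pairing, and same-numbered libraries were paired from these same values. The p-values with the block and the counts over pairs depend on that choice and are descriptive. At an unadjusted p under 0.05 the block gave 4 of 34 members (Prkar2b, Pde1b, Adcy2 and Gnai3) beside 10.9% of all genes. These 4 were higher in somatotropes, where the share over all genes was 7.17%, and none was higher in lactotropes, where it was 3.75%. Differences below are in log2(FPKM + 1), somatotrope minus lactotrope, with the standard error of the fit without the block unless the block is named. In bulk libraries fewer cells of a type and less RNA per cell cannot be told apart.

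The direction of the members was close to that of the transcriptome. Of the 34, 8 were higher in the somatotrope library of all 3 replicate pairs (23.5%, against 22.9% of all tested genes): Gnas, Gnai3, Adcy2, Prkar2b, Pde1b, Pde1c, Pde7a and Rapgef3. Another 6 were higher in the lactotrope library of all 3 pairs (17.6%, against 11.2%): Adcy7, Crem, Crebbp, Pde4b, Pde7b and Pde10a. Only Gnas had all somatotrope libraries above all lactotrope libraries (2.94%, against 2.51%), and 0 members were separated in the other direction (1.15% of all genes). The median difference was 0.08 over the members and 0.18 over all tested genes. That second value moved to 0.04 with median-ratio scaling and to 0.004 with quantile normalization, so a difference is best read against it and not against 0. The members' median turned negative in the same settings, to -0.10 in both, and the members went from 19 higher in somatotropes and 15 in lactotropes to 15 and 19. All tested genes shifted the same way: 64.8% were higher in somatotropes before, 53.6% with median-ratio scaling and 50.3% with quantile normalization.

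Replicate 1 stood above the other replicates for most members. In 24 of 34 members (70.6%, against 57.7% of all tested genes) both replicate 1 libraries were higher than the other 4. Lactotrope 3 was the sparsest library: 7 of 34 members were listed at 0 in it (20.6%, against 14.9%), namely Adcy2, Adcy3, Pde1a, Pde1b, Pde4a, Pde7a and Prkar2b. Levels within a class are therefore also given as a percentage of the class's summed FPKM, which does not depend on how a library was scaled.

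**Figure D1:**
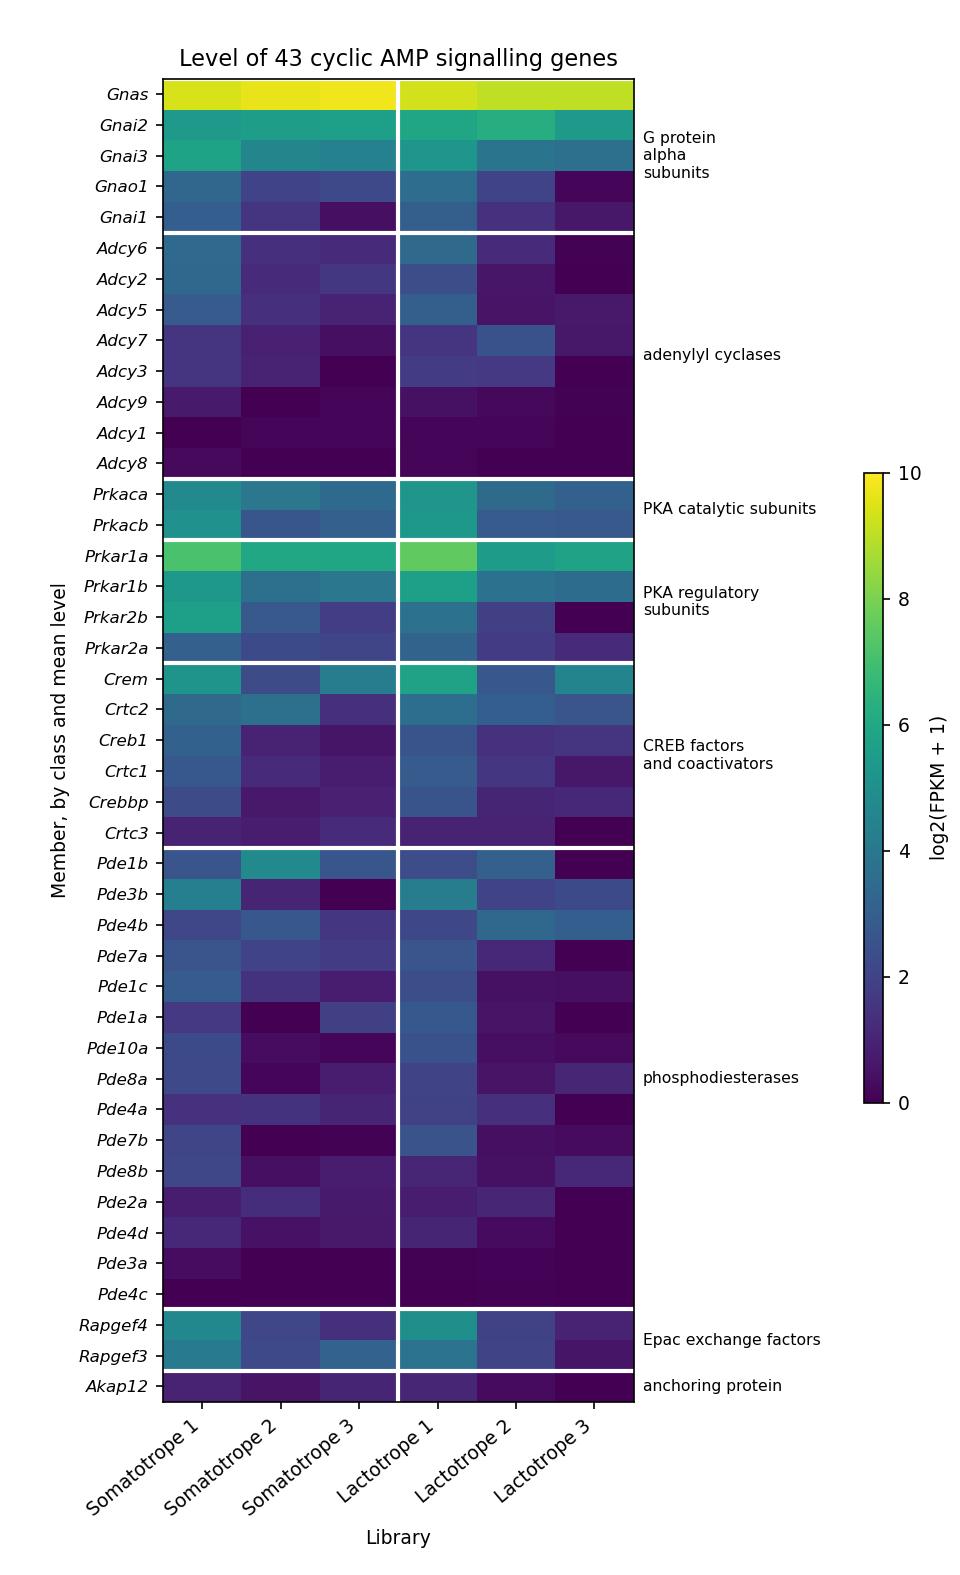
Level of each of the 43 members as log2(FPKM + 1) (colour) in each of the 6 libraries (columns), grouped by class and ordered by mean level within a class. Gnas is the brightest row in every library, and 24 of the 34 tested members are brightest in the 2 replicate 1 columns.

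Gnas, the gene of the stimulatory alpha subunit, was the most abundant member and by its highest row ranked 14 of 22869 genes by mean FPKM. Somatotropes 1 to 3 held 673, 808 and 886 FPKM, and lactotropes 1 to 3 held 630, 533 and 523. The libraries did not overlap, and replicate 1 gave the closest pair. The means were 789 ± 108 and 562 ± 59.3 FPKM (SD, n = 3 each) and the difference was 0.48 ± 0.64 (SE; limma, adjusted p = 1.00), or 0.48 ± 0.33 with the block (adjusted p = 0.598). Its percentage of the 5 alpha subunits ranged from 84.8 to 92.4. When each library was scaled to its sum without Gh and Prl, the 2 groups overlapped, with a difference of 0.44. The locus uses several promoters and first exons, and its 9 rows were all higher in somatotropes in 3 pairs, 3 of them without overlap. Rows of the locus overlap on the genome and some held the same values in a library, so they are not separate evidence. Some pairs lay near 0, as in 1 row with 0.10 against 0.018 FPKM in replicate 3. The row used here (mm9 chr2:174153415-174172243) carries a RefSeq identifier of a non-coding transcript, so its level is not that of the alpha subunit mRNA alone. Of the 2 coding rows at chr2:174155590-174172243, one did not overlap (572, 577 and 642 against 539, 384 and 371 FPKM) and the other did (559, 375 and 411 against 527, 247 and 242). The rows related to each other differently in replicate 1 than in the other 4 libraries: one row over another was 0.00208 in somatotrope 1 and 8.53e-05 in lactotrope 1, but between 1.17 and 1.18 elsewhere. No isoform is therefore read from them.

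The inhibitory subunits were lower than Gnas in all 6 libraries and did not share a direction. Gnai2 was at 41.9, 45.9 and 48.6 FPKM in somatotropes and at 58.1, 73.3 and 42.0 in lactotropes (replicates 1 to 3 in this order, as below). Lactotropes 1 and 2 were high and lactotrope 3 lay among the somatotropes (-0.31 ± 0.52). As a percentage of the 5 alpha subunits, Gnai2 was 5.35, 5.20 and 5.07 in somatotropes and 7.82, 11.7 and 7.27 in lactotropes, without overlap. Gnas took 84.8% to 92.4% of that sum, so this percentage depends on the Gnas row used as much as on Gnai2. How often such percentages separate among all genes was not measured. Gnai3 was at 54.0, 22.9 and 20.2 FPKM in somatotropes and at 36.9, 13.3 and 11.96 in lactotropes. Here every somatotrope library exceeded the lactotrope library of the same number, while replicate 1 was high in both groups, so the groups overlapped. Its difference was 0.66 ± 0.64, and 0.66 ± 0.27 with the block (unadjusted p = 0.0382, adjusted p = 0.433). The balance of both subunits followed: Gnai2 over Gnai3 was 0.776, 2.01 and 2.41 in somatotropes and 1.58, 5.51 and 3.51 in lactotropes, higher in the lactotrope of each pair. Gnai1 (6.93, 1.91 and 0.33 against 7.25, 1.66 and 0.552 FPKM) and Gnao1 (8.79, 3.08 and 3.61 against 10.8, 2.99 and 0.0868) were lower still and mixed in direction. Gnao1, which encodes the Go subunit, had a difference of 0.62 ± 0.88 that rested on the third pair and became -0.27 without lactotrope 3.

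**Figure D2:**
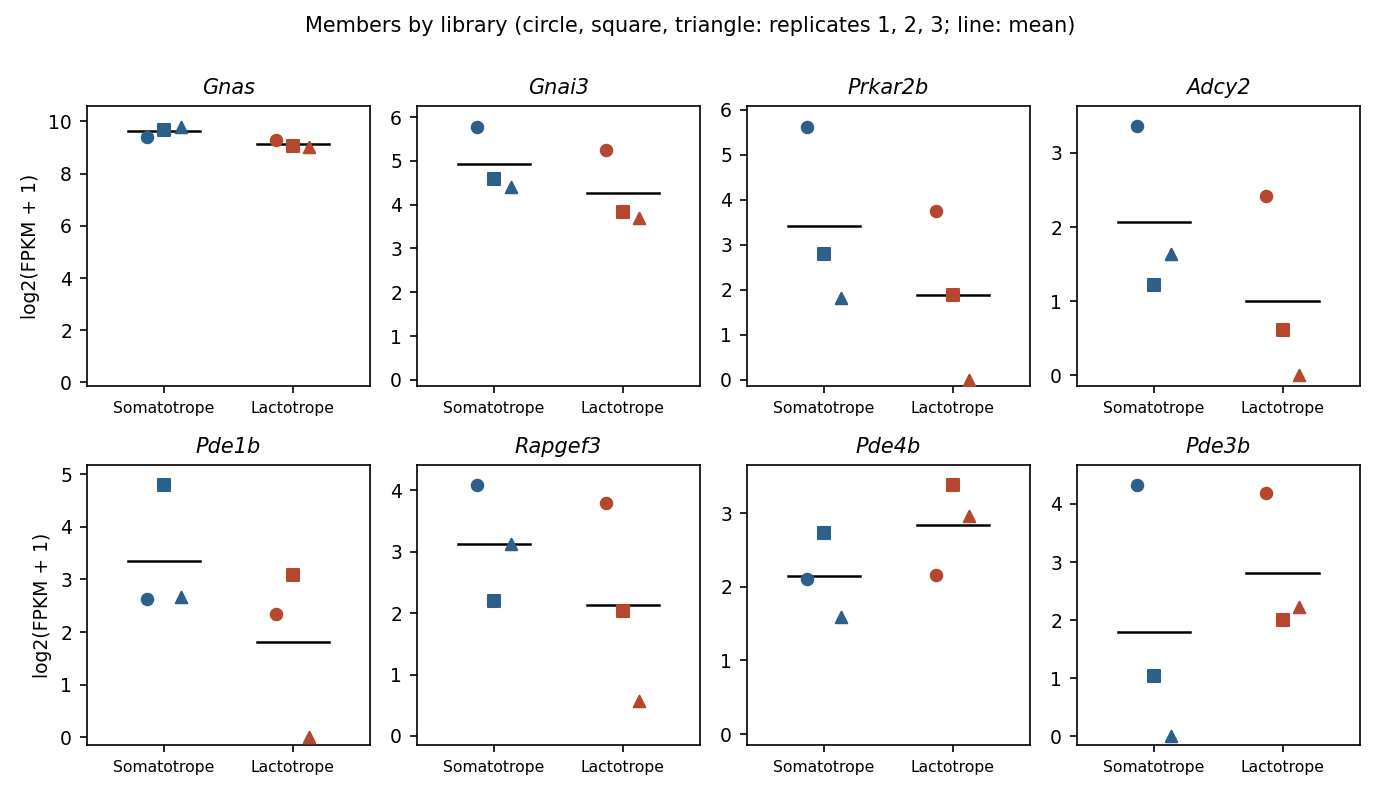
Log2(FPKM + 1) by library for the 8 members Gnas, Gnai3, Prkar2b, Adcy2, Pde1b, Rapgef3, Pde4b and Pde3b, with circles, squares and triangles for replicates 1, 2 and 3 and a line at the mean of the 3 libraries. The 3 somatotrope points of Gnas lie above its 3 lactotrope points, and the groups of the other 7 genes overlap.

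Adenylyl cyclases, which make cyclic AMP, were low: no member had a mean of 10 FPKM. Adcy6, inhibited by calcium and the highest by mean, was at 9.59, 1.54 and 1.28 FPKM in somatotropes and at 9.90, 1.29 and 0.0413 in lactotropes. Its replicate 1 libraries differed little and its groups overlapped (0.41 ± 0.94). Adcy5, of the same calcium-inhibited subfamily, was at 6.30, 1.64 and 0.926 FPKM against 7.08, 0.448 and 0.595 (0.33 ± 0.85). Adcy2, which G protein beta-gamma subunits can stimulate, was at 9.26, 1.33 and 2.11 FPKM in somatotropes and at 4.32 and 0.524 in lactotropes 1 and 2, and was listed at 0 in lactotrope 3. All 3 pairs were higher in somatotropes, with lactotrope 1 above somatotropes 2 and 3. The difference was 1.06 ± 0.84 (limma, adjusted p = 1.00), and 1.06 ± 0.38 with the block (unadjusted p = 0.0224, adjusted p = 0.391). It ranged from 0.42 to 1.77 when 1 library was left out.

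The make-up of the cyclases differed from library to library. Adcy2 made up 31.1%, 20.5% and 42.98% of the class in somatotropes and 16.5%, 5.57% and 0% in lactotropes, and these percentages did not overlap. The 0% stands for the value listed at 0 in lactotrope 3, the sparsest library. How often class percentages separate among all genes was not measured. Adcy7, known from blood cells and singled out after its values were seen, went the other way in replicates 2 and 3, with 6.17%, 13.9% and 7.05% in somatotropes against 7.39%, 50.0% and 44.97% in lactotropes. Its FPKM was 1.84, 0.902 and 0.345 against 1.94, 4.70 and 0.549, a difference of -0.61 ± 0.72. Leukocyte markers matched Adcy7 in part. All 10 were higher in the lactotrope library of each pair, and their sum was highest in lactotrope 2, where Adcy7 was highest. Among somatotropes the sum was lowest in replicate 1 (280 FPKM), where Adcy7 was highest. In lactotropes it was 821 in replicate 1 and 4474 in replicate 3, whereas Adcy7 was 1.94 and 0.549. The part of these markers in the Adcy7 values was not tested. Adcy3 was mixed (-0.28 ± 0.72). Adcy1, Adcy8 and Adcy9 reached at most 0.637 FPKM in any library. When all rows of a symbol were summed, Adcy7 took the place of Adcy6 as the most abundant cyclase, so the order within this class depends on how rows are combined. Adcy7 has 4 rows of similar level that overlap on the genome, and Adcy6 has 1.

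Both catalytic subunits of PKA overlapped between the cell types. Prkaca was at 26.6, 14.6 and 9.77 FPKM in somatotropes and at 36.5, 10.1 and 7.52 in lactotropes. Prkacb was at 32.3, 5.42 and 7.40 against 39.6, 6.31 and 5.95. Replicate 1 was the high library of both genes in both groups, and the differences were 0.13 ± 0.69 and -0.07 ± 0.83. Prkaca was the higher of the pair in replicates 2 and 3 and Prkacb in replicate 1, in both cell types. Summing rows put Prkacb first in every library, but Prkacb has 4 rows of similar level and Prkaca has 1.

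Among the regulatory subunits, which hold the catalytic subunits inactive, Prkar1a dominated. It ranked 201 of 22869 genes by mean, at 139, 62.7 and 57.3 FPKM in somatotropes and at 186, 43.7 and 53.2 in lactotropes. The groups overlapped (0.06 ± 0.66) and the sign became negative with median-ratio scaling and with quantile normalization. The signs of Prkaca, Prkar1b and Rapgef4 also turned with at least 1 of the 3 scalings tried. Prkar1a made up 59.2%, 74.5% and 73.8% of regulatory FPKM in somatotropes and 72.7%, 71.6% and 81.8% in lactotropes. Prkar1b (39.5, 11.9 and 14.6 against 49.3, 12.3 and 10.6 FPKM) and Prkar2a (7.49, 3.73 and 3.24 against 8.20, 2.37 and 1.29) also overlapped. Summed regulatory over summed catalytic FPKM was 3.97, 4.197 and 4.53 in somatotropes and 3.37, 3.72 and 4.83 in lactotropes, a range in which the groups overlapped.

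Prkar2b, the type II beta regulatory subunit of neural and endocrine cells, had the smallest p among the members with the block. Its level was 48.4, 5.90 and 2.54 FPKM in somatotropes, 12.4 and 2.67 in lactotropes 1 and 2, and it was listed at 0 in lactotrope 3. Each somatotrope exceeded its paired lactotrope, while lactotrope 1 lay above somatotropes 2 and 3. The difference was 1.54 ± 1.07 (limma, adjusted p = 1.00). With the block it was 1.54 ± 0.37, with an unadjusted p of 0.00292 and an adjusted p of 0.259. The sign was the same in the 21 alternatives run, where the adjusted p went from 0.117 to 1.00 and the difference without 1 library from 0.43 to 2.47. Prkar2b supplied 20.7%, 7.01% and 3.28% of regulatory FPKM in somatotropes and 4.82%, 4.38% and 0% in lactotropes.

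**Figure D3:**
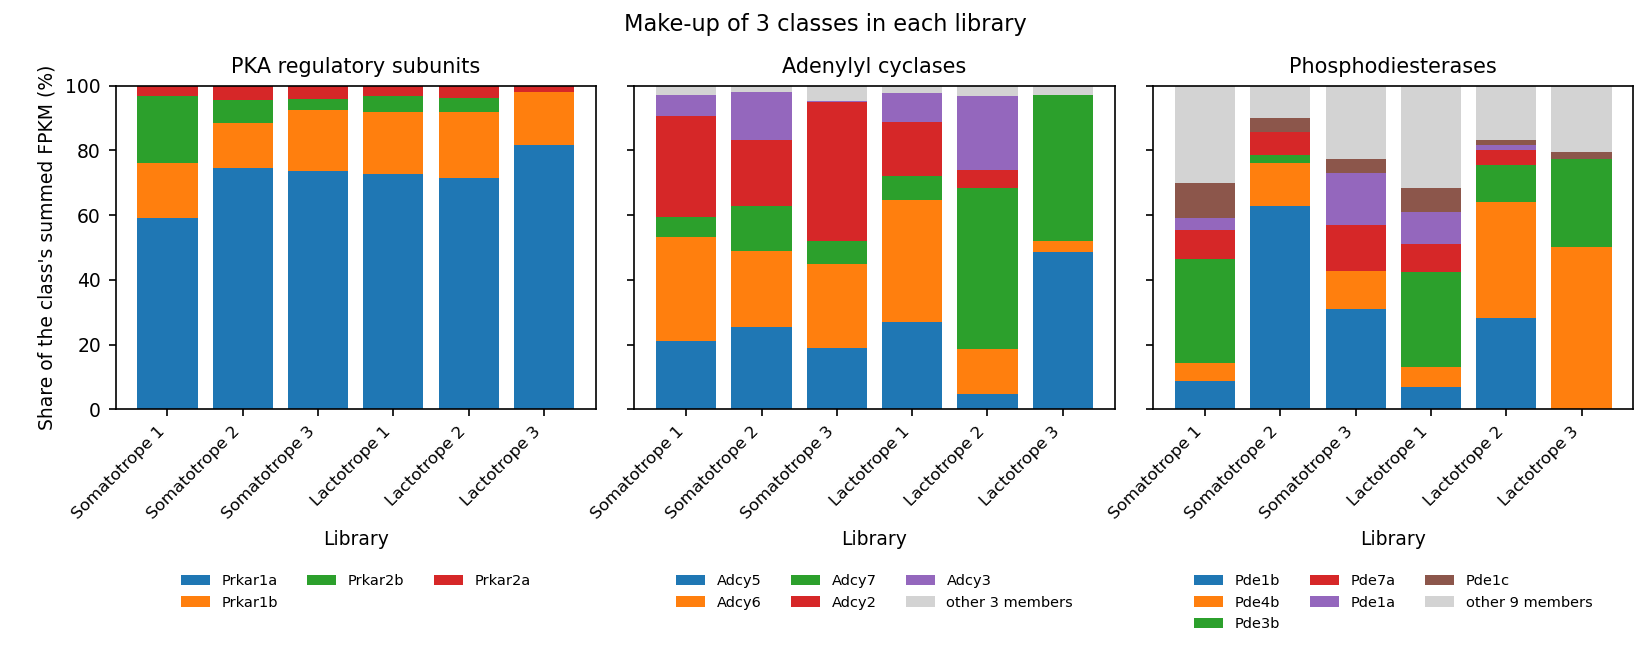
Percentage of a class's summed FPKM taken by each member in each of the 6 libraries, for PKA regulatory subunits, adenylyl cyclases and phosphodiesterases (stacked bars; members outside the 5 or 6 largest are pooled in grey). Prkar1a fills 59.2% to 81.8% of the regulatory bars, while the leading cyclase and phosphodiesterase change between libraries.

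The Prkar1a promoter held the only full cyclic AMP response element among the members' start windows. RefSeq windows (GRCm38.p6, 250 bases before to 50 after a start) were found for 34 of 43 members, 74 windows in all. The letters TGACGTCA, which read the same on both strands, were found in 2 windows (2.7%), both of Prkar1a and overlapping each other, against 1.79% of 32851 windows of all genes. The shorter site TGACG, or CGTCA on the other strand, was in 20 windows (27%) of 16 members, against 20.8% of all windows, and every full site also counts as a short one. The stretch below is chr11:109650889-109650918 on the plus strand, with the full site in capitals, 60 to 31 bases before the start of one RefSeq transcript.
Prkar1a: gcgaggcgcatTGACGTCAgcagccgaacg
A match of letters is a description, and binding was not measured here.

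All 5 tested CREB factors and coactivators had a lower mean log2 value in somatotropes, and none passed the test. Of all tested genes, 64.8% were higher in somatotropes. The direction rested on lactotrope 1: without it all 5 were higher in somatotropes, as were 81.0% of all tested genes. The class median was -0.29, and each of the 5 differences was smaller than its standard error. Crem, which makes both activators and the cyclic AMP-induced repressor ICER, was the highest, at 35.3, 3.81 and 17.2 FPKM in somatotropes and at 52.8, 5.60 and 21.7 in lactotropes. Each lactotrope exceeded its paired somatotrope, replicate 2 was low in both groups, and the groups overlapped (-0.45 ± 0.86, and -0.45 ± 0.28 with the block, adjusted p = 0.575). Of its 11 rows, 9 were lower in somatotropes in all 3 pairs, but as for Gnas the ratio between rows differed in replicate 1 (0.179 and 0.126, against 1.01 to 1.02 elsewhere), so ICER is not told from the longer forms.

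Creb1, the cyclic AMP response element binding protein itself, was at 7.62, 1.01 and 0.472 FPKM against 5.08, 1.70 and 1.90. The somatotrope was higher in pair 1 and lower in pairs 2 and 3. Crebbp, the histone acetyltransferase that binds phosphorylated CREB, was at 4.04, 0.594 and 0.884 FPKM against 5.04, 1.06 and 1.23, lower in the somatotrope of each pair (-0.29 ± 0.76). The CREB coactivators Crtc1 (5.80, 1.35 and 0.732 against 6.61, 1.96 and 0.561 FPKM) and Crtc2 (9.95, 11.8 and 1.54 against 11.2, 7.01 and 5.21) were mixed over the pairs. In replicate 2 Crtc2 led the class in both cell types (61.1% in the somatotrope and 38.4% in the lactotrope library). Crtc3, under the mean of 1 FPKM, was at 0.923, 0.737 and 1.33 against 0.932 and 0.916, and was listed at 0 in lactotrope 3.

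**Figure D4:**
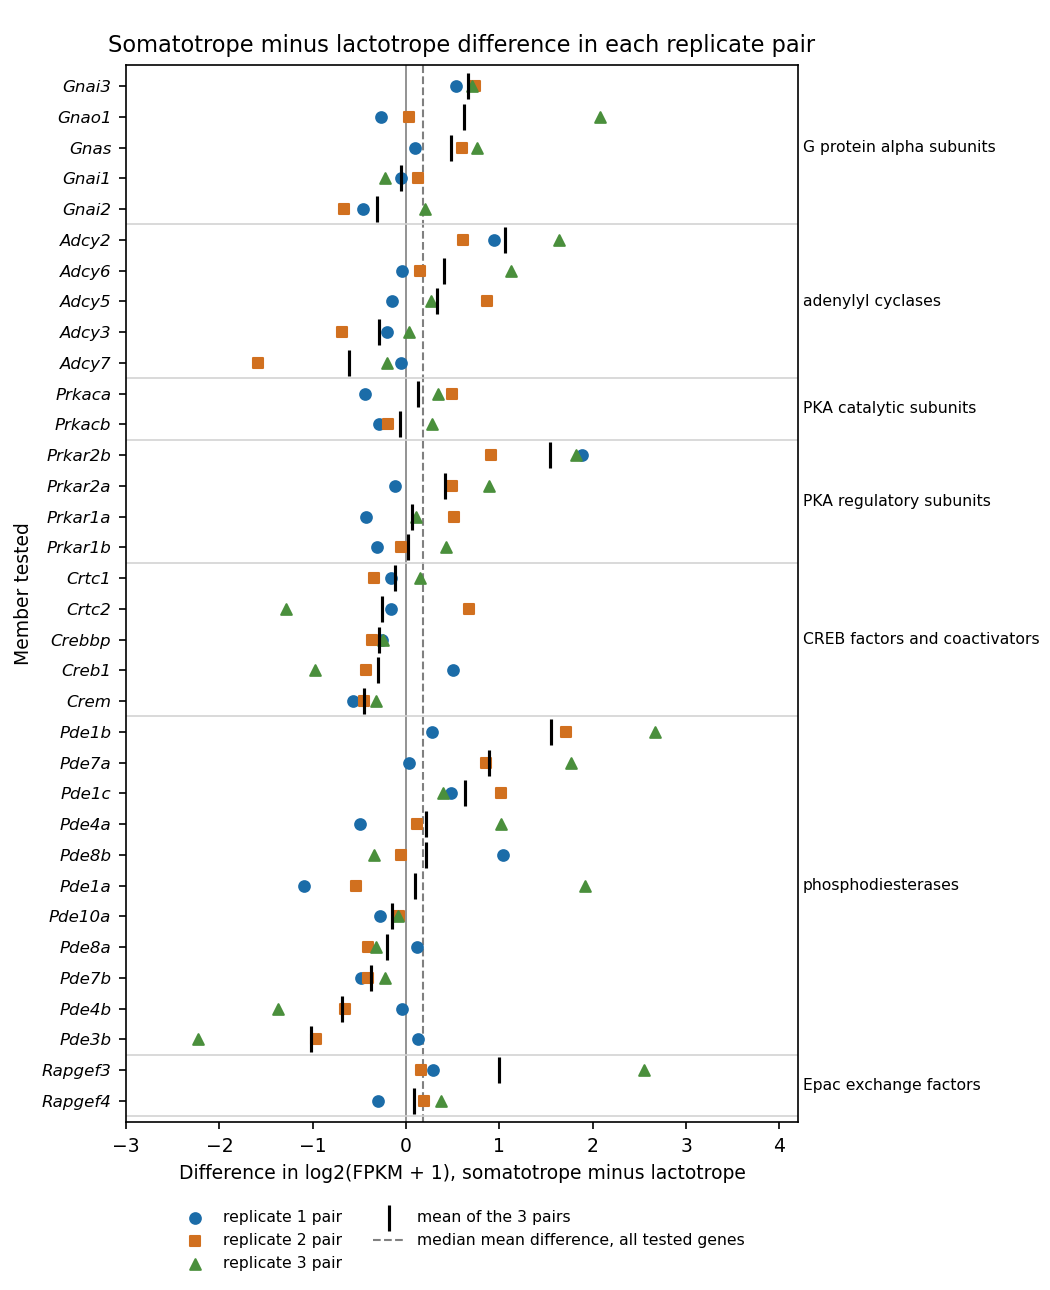
Difference in log2(FPKM + 1), somatotrope minus lactotrope, in each of the 3 replicate pairs for the 34 tested members, by class, with a black bar at the mean of the pairs and a dashed line at the median of all tested genes (0.18). Points of 8 members lie right of 0 in all pairs and those of 6 members left of 0. Pair 3 spreads the widest in genes listed at or near 0 in a replicate 3 library.

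Phosphodiesterases differed in which gene led a library. By the highest row, Pde3b led in both replicate 1 libraries, Pde1b in somatotropes 2 and 3, and Pde4b in lactotropes 2 and 3. Pde1b, a calcium and calmodulin-activated enzyme that also hydrolyses cyclic GMP, was at 5.15, 26.6 and 5.33 FPKM in somatotropes, at 4.09 and 7.45 in lactotropes 1 and 2, and listed at 0 in lactotrope 3. Somatotrope 2 stood far above the other 5 libraries, and each somatotrope exceeded its pair, although lactotrope 2 lay above somatotropes 1 and 3. The difference was 1.55 ± 0.90 (limma, adjusted p = 1.00), and 1.55 ± 0.48 with the block (unadjusted p = 0.0113, adjusted p = 0.342). Leaving out 1 library moved it between 0.64 and 2.18. Markers of stem and folliculostellate cells went the same way as Pde1b: 6 of 7 tested were higher in the somatotrope of each pair. Their sum was 258, 1708 and 1145 FPKM in somatotropes and 145, 674 and 161 in lactotropes, highest in somatotrope 2. Mia1 alone held 1432 FPKM there. The part of these markers in the Pde1b values was not tested.

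Pde4b, a cyclic AMP-specific enzyme, was at 3.32, 5.63 and 2.03 FPKM in somatotropes and at 3.45, 9.42 and 6.83 in lactotropes. Lactotropes 2 and 3 were above all somatotropes, and lactotrope 1 lay among them (-0.69 ± 0.70, and -0.69 ± 0.39 with the block, adjusted p = 0.540). It made up 5.63%, 13.3% and 11.8% of phosphodiesterase FPKM in somatotropes and 5.90%, 35.8% and 50.1% in lactotropes. The leukocyte markers given above were also higher in the lactotrope of each pair (10 of 10), and their part here was not tested. Pde3b, which cyclic GMP inhibits, was at 19.0, 1.06 and 0.0034 FPKM against 17.2, 3.00 and 3.71. Replicate 1 was high in both groups and the third pair carried the difference of -1.02 ± 1.04, which was -0.13 without somatotrope 3.

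The remaining phosphodiesterases were at most 6.46 FPKM in any library. Pde7a (0.89 ± 0.79) and Pde1c (0.63 ± 0.81) were higher in the somatotrope of each pair, and Pde7b (-0.37 ± 0.81) and Pde10a (-0.15 ± 0.81) in the lactotrope. Pde1a, Pde4a, Pde8a and Pde8b were mixed, with differences from -0.20 to 0.22. Of those too low to test, Pde2a was between 0.0019 and 1.46 FPKM and Pde4d between 0 and 1.15, while Pde3a and Pde4c stayed at or under 0.244. The leaders depended on how rows were combined. Pde1c has 8 rows, Pde4b 5, Pde1a 4, and Pde1b and Pde3b have 1 each. With rows summed, Pde4b replaced Pde1b as the class leader, and 3 of 6 library leaders changed: Pde1c led somatotrope 1 (29.2%), Pde1a led lactotrope 1 (22.0%) and Pde4b led somatotrope 3 (21.7%).

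Both Epac genes, cyclic AMP-activated exchange factors for the GTPase Rap, were present. Rapgef3 (Epac1) was at 15.9, 3.57 and 7.73 FPKM in somatotropes and at 12.9, 3.10 and 0.489 in lactotropes. Each somatotrope exceeded its pair, narrowly in pairs 1 and 2, and the difference was 1.00 ± 0.87, or 1.00 ± 0.51 with the block (adjusted p = 0.502). It was 0.22 without lactotrope 3. Rapgef4 (Epac2) was at 24.7, 3.39 and 1.53 FPKM against 30.7, 2.84 and 0.949, with overlapping groups (0.09 ± 1.07). Akap12, a scaffold that holds PKA near the membrane, was at 0.936, 0.444 and 1.03 FPKM in somatotropes, at 1.09 and 0.21 in lactotropes 1 and 2, and listed at 0 in lactotrope 3.

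Around the members, 71 further genes of the pathway in 7 lists were examined, and 39 were tested. None of the 39 passed after adjustment without or with the block (limma). At an unadjusted p under 0.05 the counts were 4 of 39 without the block (0.962% of all tested genes) and 12 of 39 with it (10.9%). In all 3 pairs, 9 of 39 were higher in somatotropes (22.9% of all genes) and 13 of 39 in lactotropes (11.2%). Without overlap, 3 were higher in somatotropes (2.51% of all genes) and 1 in lactotropes (1.15%).

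The receptor lists hold the upstream ends of the pathway. Ghrhr, the growth hormone-releasing hormone receptor, was at 110.0, 26.3 and 22.6 FPKM in somatotropes and at 9.05 and 2.88 in lactotropes 1 and 2, and was listed at 0 in lactotrope 3 (3.61 ± 0.87, unadjusted p = 0.00105, adjusted p = 1.00). It passed with array weights, without and with the block, where the adjusted p was 0.00812. Of 11642 tested genes, 9 passed with array weights without the block and 43 with it. Drd2, the inhibitory dopamine receptor, was at 0.464, 1.40 and 1.49 FPKM against 11.9, 2.51 and 3.29, with no overlap (-1.49 ± 0.75). Of the 11 receptors coupled to Gs, 4 were tested, and of the 10 coupled to Gi, 4.

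Pde9a, a cyclic GMP-specific phosphodiesterase, had no overlap between the groups, whereas every tested phosphodiesterase among the members overlapped. Its level was 7.13, 9.67 and 6.85 FPKM in somatotropes and 2.28, 2.25 and 1.21 in lactotropes. The lowest somatotrope was well above the highest lactotrope, and the difference of 1.62 ± 0.67 (unadjusted p = 0.0299, adjusted p = 1.00) kept to between 1.43 and 1.71 when 1 library was left out. With the block the adjusted p was 0.234. The stem and folliculostellate markers given beside Pde1b were higher in the somatotrope of each pair here too (6 of 7 tested). Their sum was highest in somatotrope 2, as Pde9a was. It was lower in somatotrope 1 (258 FPKM) than in lactotrope 2 (674), whereas Pde9a was 7.13 and 2.25 in these 2 libraries. The part of these markers was not tested. Pde6d, a prenyl-binding protein and the most abundant of that list, was at 42.5, 66.6 and 27.1 FPKM against 45.1, 25.1 and 24.4. Pkig, an inhibitor of the PKA catalytic subunit, was nearly level in somatotropes (20.3, 20.5 and 20.9) and lower in lactotropes (14.7, 18.5 and 10.8), without overlap (0.49 ± 0.55).

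Anchoring proteins and further CREB family genes were split. Among 14 A-kinase anchoring proteins 8 were tested, 2 higher in somatotropes and 2 in lactotropes in all pairs, and the most abundant, Akap8l, was at 48.2, 25.3 and 22.5 FPKM against 54.0, 31.6 and 23.9. Creb3, an endoplasmic reticulum membrane factor, led its list at 67.3, 30.9 and 38.9 FPKM against 63.4, 25.7 and 32.6. Its difference of 0.20 turned to -0.006 with median-ratio scaling. Creb3l1, a relative of Creb3 singled out after its values were seen, was at 6.14, 2.175 and 3.66 FPKM against 35.3, 4.17 and 19.5 (-1.73 ± 0.77, unadjusted p = 0.0429, adjusted p = 1.00, and 0.235 with the block).

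Of 12 cyclic AMP responsive genes on the list 9 were tested, and 0 passed after adjustment with limma, without or with the block. In all 3 pairs 8 of the 9 were higher in the lactotrope (11.2% of all tested genes were), and Per2 was mixed. The median difference was -1.16, beside 0.18 over all tested genes. At an unadjusted p under 0.05 there was 1 of 9 without the block (0.962% of all genes) and 7 of 9 with it (10.9%). The most abundant, Dusp1, a phosphatase that turns off MAP kinases, was at 17.9, 34.7 and 231 FPKM in somatotropes and at 113, 186 and 495 in lactotropes. Replicate 3 was the high library in both groups, so the groups overlapped although each pair was apart (-2.03 ± 0.86, adjusted p = 1.00, and 0.230 with the block).

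The other responsive genes named here, 3 in number, were chosen after their values were seen. Fos, a subunit of the AP-1 factor, was at 7.83, 19.2 and 276 FPKM against 34.6, 187 and 533. Nr4a1, an orphan nuclear receptor, was at 24.0, 17.97 and 33.7 against 113, 24.9 and 53.4, and Btg2, an antiproliferative gene, at 51.6, 31.6 and 122 against 139, 101 and 162. Every lactotrope exceeded its pair in these genes, and the groups overlapped. With array weights and the block, the limma adjusted p was 0.0261 for Dusp1 and 0.0411 for Fos. That setting passed 43 of 11642 tested genes, 39 of them higher in lactotropes, and Fos passed in no other setting. The 10 leukocyte markers were higher in the lactotrope of every pair too. Their sum was lowest in replicate 1 of both groups, as Fos and Dusp1 were. It was highest in replicate 2 (5762 and 12621 FPKM), whereas Fos, Dusp1 and Btg2 were highest in replicate 3. Nr4a1 was highest in lactotrope 1, where the sum was the lowest of the lactotropes (821). The part of these markers in the values was not tested.

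**Figure D5:**
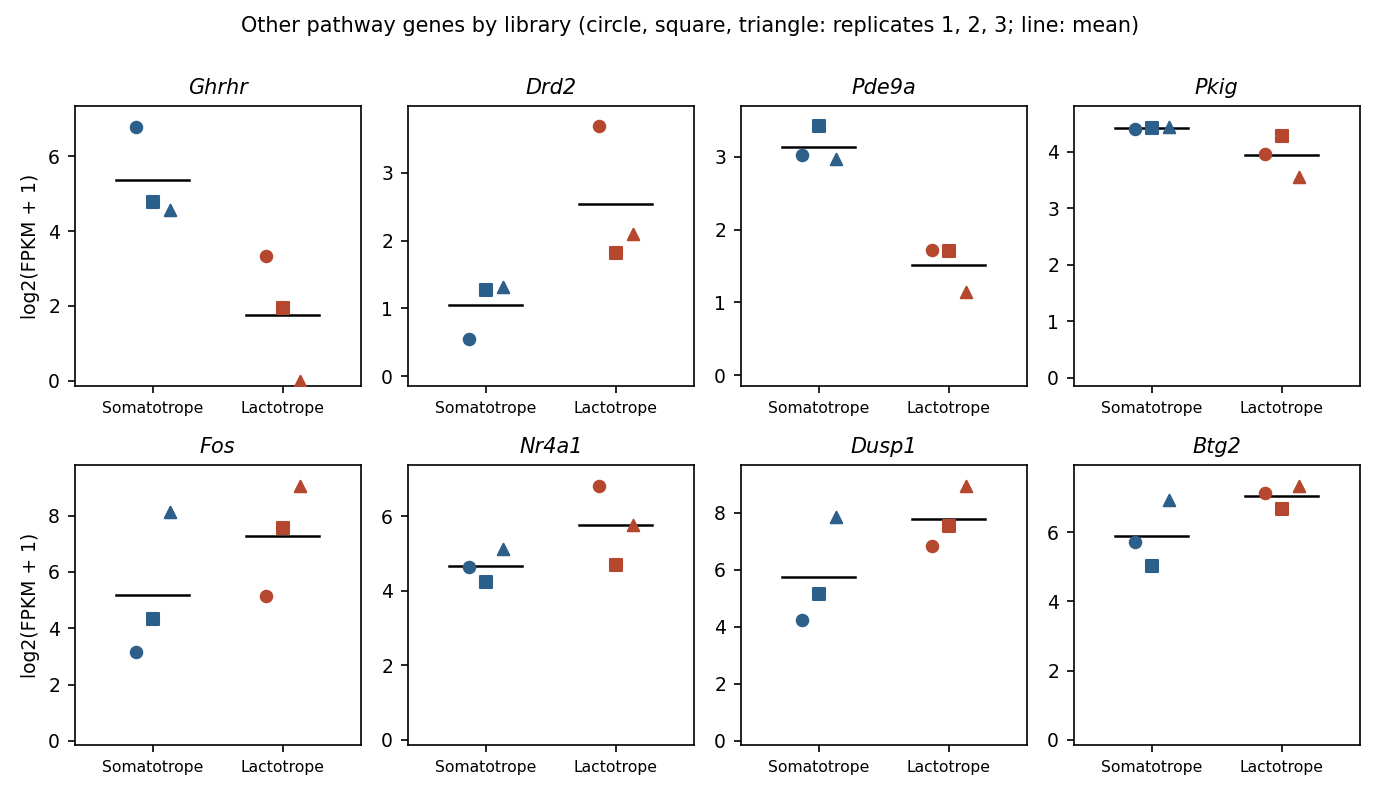
Log2(FPKM + 1) by library for 8 pathway genes outside the 43 members, with circles, squares and triangles for replicates 1, 2 and 3 and a line at the mean. Ghrhr, Pde9a and Pkig are separated with somatotropes above and Drd2 with lactotropes above, whereas Fos, Nr4a1, Dusp1 and Btg2 are higher in the lactotrope of each pair with overlapping groups.

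RefSeq start windows were found for 11 of the 12 responsive genes, 12 windows in all, and every one held TGACG or CGTCA, against 20.8% of all windows. The full TGACGTCA was in 2 of them, Btg2 and Dusp1. The list was made of known targets, so the matches describe it and add no separate evidence. The stretches below are the 180 bases before the start (GRCm38.p6), read 5′ to 3′ on the gene's strand. Capitals mark a full site in Dusp1 and Btg2 and short sites in Fos and Nr4a1. They lie at chr12:85473710-85473889 (plus strand) for Fos, chr15:101266666-101266845 (plus) for Nr4a1, chr17:26508473-26508652 (minus) for Dusp1 and chr1:134079156-134079335 (minus) for Btg2.
Fos: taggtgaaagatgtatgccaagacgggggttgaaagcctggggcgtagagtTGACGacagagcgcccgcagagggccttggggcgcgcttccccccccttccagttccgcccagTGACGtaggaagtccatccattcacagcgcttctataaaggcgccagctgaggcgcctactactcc
Nr4a1: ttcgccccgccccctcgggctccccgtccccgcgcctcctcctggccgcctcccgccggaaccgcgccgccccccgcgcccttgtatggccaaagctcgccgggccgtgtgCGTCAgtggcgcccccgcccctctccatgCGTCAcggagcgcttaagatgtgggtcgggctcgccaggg
Dusp1: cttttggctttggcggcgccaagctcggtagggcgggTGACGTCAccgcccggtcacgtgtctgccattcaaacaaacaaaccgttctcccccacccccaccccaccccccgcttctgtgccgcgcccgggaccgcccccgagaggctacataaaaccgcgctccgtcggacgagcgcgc
Btg2: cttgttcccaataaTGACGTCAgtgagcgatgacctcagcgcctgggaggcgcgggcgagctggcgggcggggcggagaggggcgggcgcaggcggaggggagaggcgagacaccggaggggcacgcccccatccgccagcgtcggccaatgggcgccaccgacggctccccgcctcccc
The Fos stretch holds 2 short sites, the nearer at -66, and the Nr4a1 stretch 2, the nearer at -40, counted from the start as 0.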

How the data were processed

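The data are 1 FPKM table deposited by the authors, with 30399 rows, 1 per transcript, and a column for each library; 0 value columns could not be matched to a sample by its description. The submitters' processing notes name bcl2fastq (2.17.1.14), TopHat, edgeR and genome build mm9. Not given in the sources used here is how reads were counted over rows. FPKM is per length and is not a count, depth is unknown, and a value of 0 is called listed at 0. Rows without a symbol (889) were left out, and each gene took its row with the highest mean.

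Values were tested as log2(FPKM + 1), which understates the change of low genes, where the mean over libraries was 1 FPKM or more. The test was limma (version 3.58.1, R 4.3.3) with an intensity trend, and p-values were adjusted by Benjamini-Hochberg over all 11642 genes with a threshold of 0.05. Deviations of same-numbered libraries from their group means correlated over genes at 0.763, 0.613 and 0.341. Those of differently numbered libraries ran from -0.631 to 0.233, highest for somatotrope 3 with lactotrope 2, so the third pair stands out least. The titles state no pairing. The replicate numbers were taken to pair the samples from these same values, and the blocked fit stands beside the results it bears on. The members and lists were chosen with earlier results of these data known. Values by library are given for all members of classes of up to 6, the 3 most abundant of larger classes, members without overlap and the 4 smallest p-values of either fit; of the other pathway lists, for the most abundant gene and those without overlap. Alternatives were other pseudocounts, filters, scalings, row sums, variance models, library weights and leaving out libraries. The code was tested on simulated data.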

Additional observations from a re-analysis of the deposited data

How the results depend on the processing

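Over 21 alternatives, 0 members passed after adjustment, and the 34 tested members gave 613 of 695 differences with the sign of the reported fit and 82 with the other sign. Signs held throughout for 12 members: Gnas, Gnai2, Gnai3, Adcy2, Adcy7, Prkar2b, Pde1b, Pde1c, Pde3b, Pde4b, Pde7a and Rapgef3. The share of all tested genes that kept their sign was not counted, so these counts do not set the members apart. Signs are against 0, and the median over all tested genes itself changed sign between settings, as given below. With the replicate block, which pairs same-numbered libraries, 0 genes of all tested passed; array weights gave 9, array weights with the replicate block 43, and leaving out libraries 0 to 3 (3 without somatotrope replicate 1). Members separated with somatotropes above numbered 2 with quantile normalization (2.99% of all genes) and 0 with the library sum without Gh and Prl (4.11%). They numbered 1 to 10 when libraries were left out (2.89% to 24.7% of all genes). A count of 10 came without lactotrope replicate 1 (20.6%) and without replicate 1 (24.7%). Members separated with lactotropes above numbered 0 to 5 in all these settings (1.42% to 10.2% of all genes), with 5 without replicate 1 (10.2%). The members' median difference ran from -0.35 (without lactotrope replicate 3) to 0.66 (without lactotrope replicate 1), so its sign changed with the library left out; the median over all tested genes was -0.13 and 0.58 in these settings. The most abundant member of a class was the same for 5 of 8 classes when rows were summed. The cause of these changes was not tested. Depth is unknown, so values near 0, most of them in lactotrope 3, carry no interval.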
